A study of Mus musculus with 4 samples.

Results

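Small nucleolar RNAs (snoRNAs) and the related small Cajal body RNAs (scaRNAs) were examined in mouse embryonic stem cells that lack the miR-290-295 microRNA cluster (KO, n = 2 libraries) and in wild-type cells (WT, n = 2 libraries). The genes were chosen by their measured counts: all rows with the GENCODE vM21 biotype snoRNA or scaRNA whose counts summed to at least 20 over the 4 libraries. This gave 97 RNAs, 87 annotated as snoRNA and 10 as scaRNA, out of 1558 annotated genes of both biotypes and 55421 rows in the table. Of the other annotated genes, 1346 had no count and 115 had between 1 and 19. At the edge of the choice, Gm25492 and Snord70 summed to 21 counts and Gm22009 to 24, while Gm22571, Gm22661 and Snord7 summed to 19 and stayed outside.

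All 4 libraries came from the E14 line, a blastocyst-derived line of the 129/Ola background, and both groups were grown with serum and LIF on gelatin. Each pair was described as biological duplicates. How many clones the KO pair came from is not stated, so p-values measure only the spread between these libraries. RNA was made into libraries with QuantSeq 3' FWD, a method that primes on poly(A) and gives reads near the primed end. Most mature snoRNAs carry no poly(A) tail, so the counts describe RNA captured by this method, which may be tailed, internally primed or precursor RNA, and not the mature pool. Libraries held 12726123 and 11764868 counts in KO, and 12163759 and 9925557 counts in WT. As a check of the labels, Mir295 had 0 counts in both KO libraries, against 80 and 22 counts in WT. Mir290b, in the same cluster, had 4 counts in KO library 1, 0 counts in KO library 2 and 0 counts in both WT libraries.

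SnoRNAs guide the chemical modification of other RNAs by base pairing. H/ACA RNAs (symbols Snora) direct the conversion of uridine to pseudouridine and end a few bases after an ACA triplet. C/D RNAs (symbols Snord) direct methylation of the ribose and carry a C box near the start and a D box near the end. The scaRNAs (symbols Scarna) have the same boxes, stay in Cajal bodies and guide the modification of spliceosomal RNAs. In mammals most of these RNAs are cut out of introns of host genes, many of which encode ribosomal proteins or translation factors, while a few have promoters of their own.

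Sequences of 6 RNAs called lower are printed to show both box types. The following 3 are H/ACA in form, and the capitals mark the ACA triplet found within the last 8 bases. They lie at chr17:12922790-12922917 on the plus strand (Snora20), chr9:64295931-64296065 on the plus strand (Gm24289) and chr12:17546146-17546281 on the plus strand (Gm22748). These and all sequences below were read from the GENCODE vM21 annotation on GRCm38.
Snora20: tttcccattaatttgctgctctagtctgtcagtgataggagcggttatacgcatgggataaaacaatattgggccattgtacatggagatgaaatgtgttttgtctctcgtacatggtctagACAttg
Gm24289: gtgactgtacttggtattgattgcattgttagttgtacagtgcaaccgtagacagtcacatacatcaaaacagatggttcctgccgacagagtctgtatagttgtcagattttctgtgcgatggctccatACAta
Gm22748: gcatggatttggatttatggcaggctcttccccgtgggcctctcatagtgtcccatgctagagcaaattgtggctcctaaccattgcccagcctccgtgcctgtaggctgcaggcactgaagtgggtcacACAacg

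The next 3 are C/D in form. Capitals mark the C box, searched as NTGATGA in the first 20 bases, and the D box, searched as CTGA in the last 12 bases. They lie at chr1:59704790-59704873 on the plus strand (Snord11), chr9:64175048-64175115 on the plus strand (Gm23344) and chr9:15326264-15326333 on the minus strand (Scarna9).
Snord11: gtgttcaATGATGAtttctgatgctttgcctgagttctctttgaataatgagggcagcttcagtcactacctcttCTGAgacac
Gm23344: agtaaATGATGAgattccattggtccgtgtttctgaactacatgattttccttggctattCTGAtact
Scarna9: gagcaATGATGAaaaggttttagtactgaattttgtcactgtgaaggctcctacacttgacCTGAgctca

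The boxes were searched on the annotated strand alone. Of the 97 RNAs, 63 had the ACA triplet and no D box, 20 had both the C and the D box and 14 had neither pattern. Gm25128, Snord42a and Gm24494, which are among the RNAs with the largest changes, had the D box but no C box in the window and count among the 14. ACA within the last 8 bases was present in 69.1% of them, against 47.6% of all 1558 annotated genes, and the pair of C and D boxes was present in 20.6%, against 19.2%. The symbols and the boxes mostly coincided. Of 13 Snora RNAs, 12 had the ACA form, and of 19 Snord RNAs, 12 had the C/D form, 1 (Snord70) had the ACA form and 6 had neither. The 61 RNAs with other symbols, mostly gene models named Gm, had the ACA form in 49 cases and the C/D form in 6. Results are therefore given by symbol, with sums and calls by box beside those of the Snord RNAs.

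As a class the RNAs were lower in KO. Together they held 4153 and 3500 counts in KO, against 12823 and 10274 counts in WT. Their share of all counts was 0.0326% (95% Wilson interval 0.0317 to 0.0336) and 0.0297% (0.0288 to 0.0308) in the KO libraries, and 0.105% (0.104 to 0.107) and 0.104% (0.102 to 0.106) in the WT libraries. These intervals cover counting error only. As CPM, counts scaled to a common library size after TMM normalization, the sum was 312.7 ± 19.9 in KO and 1046 ± 34.1 in WT (SD, n = 2 each), a ratio of 0.299. Without the 4 RNAs with the most counts the ratio was 0.298. In bulk libraries, less of an RNA per cell and fewer cells that hold it cannot be told apart.

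Gene by gene, 74 of the 97 RNAs passed the filter on low counts, and edgeR's quasi-likelihood test, adjusted over 14427 genes, called 37 lower in KO and 0 higher at an adjusted p of 0.05. At an unadjusted p under 0.05, 0 were higher as well, and the DESeq2 test also called 0 higher. Without KO library 2 the count of lower RNAs was 24. That fit tested 94 RNAs, not 74, because its filter let more through. In the background of all genes tested in the main fit, 4.96% were called lower and 7.42% higher. Of the 74, 68 had a log2 fold change below 0 and 6 above it. The 74 do not stand for all 97, because 23 passed the filter through the WT libraries alone and 18 of these were called. A fit without the filter covered all 25542 genes with a count, among them all 97 RNAs, and called 54 RNAs lower and 0 higher. Of all genes in that fit, with those under 20 counts included, 4.67% were lower. The share called higher was not computed. Of the calls it added, 12 fell on RNAs tested but not called in the main fit. For Gm24289 its edgeR adjusted p was 1.135e-30, against 0.000192 in the main fit, at nearly the same log2 fold change. Its calls are therefore not on the same footing as the 37. The order of the libraries does not use the filter of the fit, but the choice by summed count let in some RNAs through WT counts alone. Both KO libraries lay below both WT libraries for 75 of the 97, against 28.2% of all genes with a summed count of at least 20. Both KO libraries lay above both WT libraries for 2, Gm24095 and Scarna2, against 28.5% of all such genes, and the groups overlapped for 20.

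**Figure D1:**
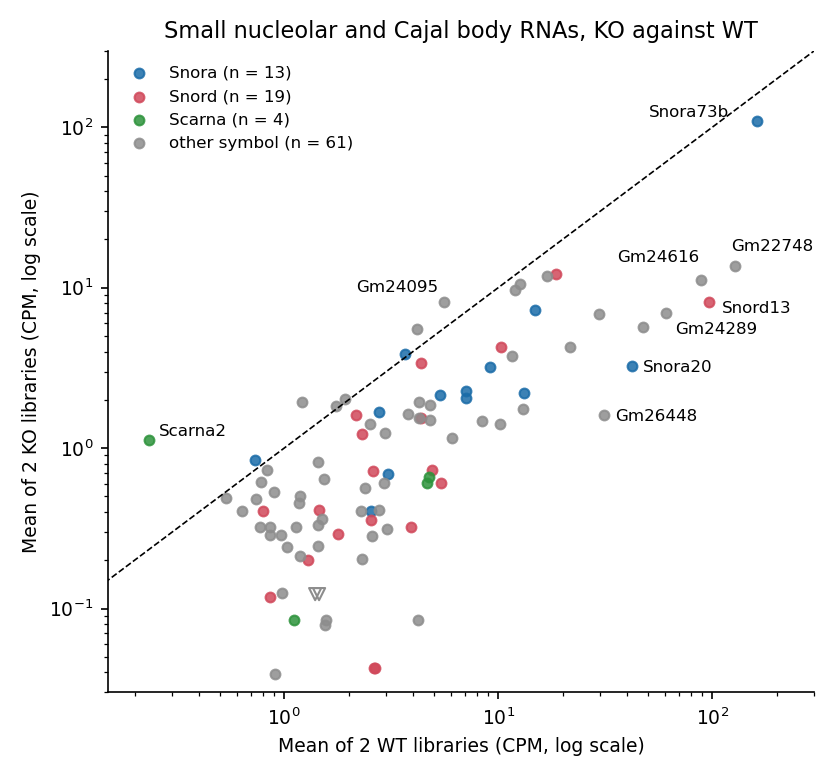
Mean CPM of the 2 KO libraries (vertical, log scale) against the mean of the 2 WT libraries (horizontal, log scale) for the 97 RNAs, coloured by symbol. The dashed line marks equal levels, and open triangles mark Gm25128 and Gm23344, which had 0 counts in KO and are drawn at the 3-count floor of 0.123 CPM. Most points lie below the line, with Snora73b close to it and Scarna2 and Gm24095 above it.

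The genes with 1 to 19 counts, which the choice left out, gave a sum of 88 and 90 counts in KO, against 197 and 242 counts in WT. That is 6.925 and 7.68 CPM in KO and 16.44 and 24.07 CPM in WT, again lower in both KO libraries.

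Among the H/ACA RNAs named Snora, 6 of 12 tested were lower in KO, with a median log2 fold change of -1.57 (10 of 13 without the filter), and both KO libraries lay below both WT libraries for 8 of 13. Their summed level was 142.5 and 136.5 CPM in KO, against 290.9 and 256.2 CPM in WT, a ratio of 0.51. Snora73b, the U17 RNA that takes part in processing of the small-subunit ribosomal RNA, dominated that sum. It held 33.6% and 36.7% of the counts of all 97 RNAs in the KO libraries, and 16.0% and 14.9% in the WT libraries. Per 100 bases of annotated length it had 3050 counts over the 4 libraries, against 2390 for Gm22748, the next in total count.

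Snora73b had 1394 and 1283 counts in KO, against 2053 and 1531 counts in WT. It had the smallest change of the 37 RNAs called lower, at 109.6 ± 0.146 CPM in KO and 161.8 ± 13.5 CPM in WT (SD, n = 2 each). The log2 fold change was -0.56 (SE 0.15, edgeR adjusted p = 0.0405), and the call was lost when either KO library or the first WT library was left out. Its annotated copy Snora73a is 96.6% identical, and an exon of Gm17300 lies on the other strand, so its reads may be shared.

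Snora20, carried in an intron of the chaperonin gene Tcp1, had 48 and 32 counts in KO, against 607 and 342 counts in WT. The KO libraries were far below both WT libraries, at a log2 fold change of -3.70 (SE 0.30, edgeR adjusted p = 0.000253). Snora41, in the translation elongation factor gene Eef1b2, had 28 and 26 counts in KO, against 240 and 63 counts in WT. Its log2 fold change was -2.57 (SE 0.53, edgeR adjusted p = 0.0160), and without WT library 1 it was -1.503 and not called. It has a copy of 97.7% identity.

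Snora30 had 44 and 34 counts in KO, against 125 and 80 counts in WT, and its call (log2 fold change -1.53, edgeR adjusted p = 0.0245) held in 1 of the 4 fits that left out a library. Snora62 and Snora47 were also called at log2 fold changes of -2.14 and -2.62, each in 1 of those 4 fits. For these 3 RNAs the call was lost when either KO library or the first WT library was left out. Snora47 passed the filter through the WT libraries alone. The other Snora RNAs were not called. Snora78 had 45 and 12 counts in KO, against 38 and 110 counts in WT, and Snora31 had 24 and 69 counts in KO, against 47 and 34 counts in WT. Both overlapped between the groups. Snora21 (-1.32), Snora57 (-1.01), Snora17 (-1.76) and Snora23 (-0.73) had log2 fold changes below 0 without a call. For Snora57 it was -0.13 without WT library 2 and for Snora23 it was 0.49 without WT library 1. Snora69, with 15 and 6 counts in KO and 8 and 8 counts in WT, was not tested.

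The C/D RNAs named Snord were lower in KO in 6 of 15 tested cases (12 of 19 without the filter). The median log2 fold change of those tested was -1.83. Of those called, Snord11, Snord35a, Snord42a, Snord83b and Snord87 passed the filter through the WT libraries alone. So did Snord37 and Snord73a, which were not called. The filtered count and median therefore do not stand for all 19. Both KO libraries lay below both WT libraries for 17 of 19 Snord RNAs. The summed level of the Snord RNAs was 36.43 and 36.69 CPM in KO, against 95.98 and 243.6 CPM in WT, a ratio of 0.215. Without WT library 2 the ratio was 0.381. The sum in WT library 2 was far above that in WT library 1, while the KO libraries had nearly the same sum. Grouped by box, the ratio was 0.322 for the ACA form, 0.349 for the C/D form and 0.145 for RNAs with neither pattern. In the fit without the filter, 31 of 63, 15 of 20 and 8 of 14 of these were lower. Differences between the symbol classes or the box groups were not tested.

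Snord11, in an intron of Nop58, which itself encodes a core protein of C/D particles, had 0 and 1 counts in KO, against 30 and 28 counts in WT. The log2 fold change was -5.68 (SE 0.91, edgeR adjusted p = 0.00528). Snord42a, in the ribosomal protein gene Rpl23a, had 0 and 1 counts in KO, against 39 and 20 counts in WT, at a log2 fold change of -5.67 (SE 0.94, edgeR adjusted p = 0.00638). An exon of Tlcd1 lies opposite Snord42a, and the strand setting of the counting is not given in the sources used here. Both calls held in all 4 fits that left out 1 library. Their fitted values rest on 1 count in KO, and without KO library 1 they were -4.78 for Snord11 and -4.77 for Snord42a.

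Gm23344, a C/D RNA in the ribosomal protein gene Rpl4, had 0 counts in both KO libraries, against 12 and 18 counts in WT. Against a floor of 3 counts over the KO group it was at least 11.4-fold lower in KO (edgeR adjusted p = 0.0137), and the call was lost without KO library 1 or KO library 2. Without WT library 2, Gm23344 did not pass the filter and was not tested. Gm25128, in the RNA helicase gene Ddx39b, likewise had 0 counts in both KO libraries, against 17 and 15 counts in WT. By the same floor its level was at least 11.9-fold lower (edgeR adjusted p = 0.0101). Its call was lost without KO library 1. In the main fit Gm23344 and Gm25128 passed the filter through the WT libraries alone. Counts of 0 limit only what this depth could detect.

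Snord35a, in Rpl13a, had 10 and 8 counts in KO, against 60 and 48 counts in WT, at a log2 fold change of -2.72 (SE 0.49, edgeR adjusted p = 0.00928). The values within each group were close together. Snord87, in the snoRNA host gene Snhg6, had 5 and 3 counts in KO, against 24 and 59 counts in WT (log2 fold change -3.54, edgeR adjusted p = 0.0161). Snord83b, in Rpl3, had 9 and 6 counts in KO, against 29 and 84 counts in WT (log2 fold change -3.11, edgeR adjusted p = 0.0205). Without WT library 2 neither was called, and the log2 fold changes were -2.58 for Snord87 and -1.97 for Snord83b.

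Other Snord RNAs had no call. Snord89 had 33 and 49 counts in KO, against 38 and 56 counts in WT, at a log2 fold change of -0.36 without a call. Snord55 (-1.83), Snord65 (-1.49), Snord37 (-2.76), Snord72 (-0.91) and Snord73a (-1.80) were not called, though for each of them both KO libraries lay below both WT libraries. Snord82, Snord92, Snord49a and Snord70 were not tested, and for each of them both KO libraries lay below both WT libraries in CPM.

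The 10 RNAs annotated as scaRNA, which include Scarna17, Scarna2 and Scarna8, summed to 239 and 168 counts in KO, against 1552 and 1295 counts in WT, a CPM ratio of 0.128. All 6 that were tested were called lower, against 4.96% of all genes tested, with log2 fold changes between -4.15 and -2.83. Gm25395 and Gm25492 (-4.15) passed the filter through the WT libraries alone, so these values do not stand for all 10. In the fit without the filter, 7 of the 10 were lower, against 4.67% of all genes in that fit. Both KO libraries lay below both WT libraries for 9 of the 10, and Scarna2 was the exception. Gm24289, in an intron of the replication fork gene Tipin, had 96 and 74 counts in KO, against 642 and 689 counts in WT. Its KO libraries were close to each other and so were its WT libraries, and the log2 fold change of -3.13 (SE 0.23) had the smallest adjusted p of the 97 RNAs, 0.000192 by edgeR. Gm22767, in the protein phosphatase inhibitor gene Ppp1r8, had 108 and 34 counts in KO, against 671 and 397 counts in WT (log2 fold change -3.06, SE 0.42, edgeR adjusted p = 0.00249), with -4.03 without KO library 1.

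Scarna9, which has a Scarna symbol but the biotype snoRNA and is not in these sums, lies in the centriole gene Cep295. It passed the filter through the WT libraries alone. It had 9 and 6 counts in KO, against 53 and 49 counts in WT (log2 fold change -2.90, SE 0.52, edgeR adjusted p = 0.00877). Gm23751, in the chromatin remodeller gene Chd4, had 14 and 20 counts in KO, against 128 and 97 counts in WT (log2 fold change -2.85, SE 0.40, edgeR adjusted p = 0.00296). The calls of these and of Gm24289 and Gm22767 held in all 4 fits that left out a library. Gm25395 had 0 and 2 counts in KO, against 21 and 14 counts in WT, and Gm25492 had 1 and 0 counts in KO, against 11 and 9 counts in WT. Gm25395 (log2 fold change -4.09) lost its call without KO library 1 or WT library 1, and Gm25492 (-4.15) without KO library 1 or KO library 2, and without a WT library it did not pass the filter.

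Scarna8 had 0 and 2 counts in KO, against 17 and 8 counts in WT, and Gm22728 had 1 and 2 counts in KO, against 15 and 7 counts in WT. Gm22009 had 6 and 4 counts in KO, against 8 and 6 counts in WT. None of the 3 passed the filter.

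**Figure D2:**
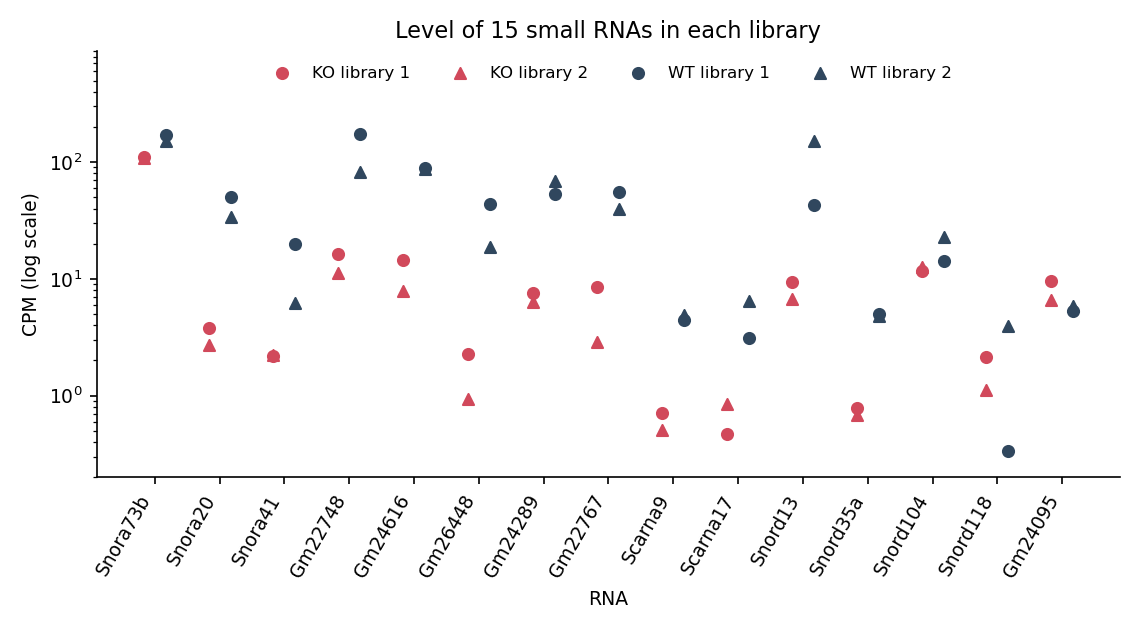
CPM in each library (log scale) for 15 of the RNAs, with KO libraries left of WT libraries within each RNA and marker shape giving the library number. Gm24289, Gm22767 and Snora20 show groups far apart, Snora73b shows groups close together, and the WT libraries lie apart from each other for Snord13 and Snord118.

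The RNAs with no symbol of either family, 61 in all, were lower in 23 of 45 tested cases with a median log2 fold change of -2.09. In the fit without the filter 29 of 61 were lower. Some of those tested, Gm24494 and Gm26397 among them, passed the filter through the WT libraries alone. Gm22748, an H/ACA RNA in the polyamine synthesis gene Odc1, had 207 and 131 counts in KO, against 2083 and 827 counts in WT (log2 fold change -3.22, SE 0.35, edgeR adjusted p = 0.000908). Without WT library 1 the log2 fold change of Gm22748 was -2.58, and a copy of 91.9% identity exists. Gm26448, an H/ACA RNA in the ribosomal protein gene Rpsa, had 29 and 11 counts in KO, against 525 and 190 counts in WT (log2 fold change -4.26, SE 0.51, edgeR adjusted p = 0.00134), with -5.04 without KO library 1 and -3.54 without WT library 1. Gm24494, in the Rab prenylation gene Rabggtb, had 0 and 2 counts in KO, against 51 and 42 counts in WT (log2 fold change -5.51, SE 0.83, edgeR adjusted p = 0.00413). This fitted value rests on 2 counts in KO and was -4.54 without KO library 1 and -8.61 without KO library 2. Gm26397, in the mitochondrial import gene Tomm20, had 3 and 2 counts in KO, against 22 and 28 counts in WT (log2 fold change -3.43), and was not called without KO library 1 or KO library 2.

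Gm24616 lies on an annotated exon of the translation factor gene Eif4a2 on the same strand, so its reads and those of that exon cannot be told apart. It had 183 and 92 counts in KO, against 1074 and 872 counts in WT (log2 fold change -2.98, SE 0.27, edgeR adjusted p = 0.000445). Eif4a2 as a whole had a log2 fold change of -0.55 (edgeR adjusted p = 0.042). Gm23639, in the non-coding host Epb41l4aos, had 81 and 86 counts in KO, against 516 and 165 counts in WT, a log2 fold change of -2.12, or -1.26 without WT library 1. The call was kept.

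A few RNAs lay at or above 0. Gm24095, in the zinc finger gene Zfp934, had 121 and 78 counts in KO, against 63 and 59 counts in WT, and its log2 fold change of 0.54 (SE 0.34, edgeR adjusted p = 0.341) was not called. A copy, Gm22579, is 99.2% identical to it and 100.0% identical to Gm24539, whose log2 fold change was -0.31. Gm23722 had 86 and 50 counts in KO, against 43 and 48 counts in WT, at a log2 fold change of 0.40 without a call. Copies were common. A copy of at least 90% identity existed for 37 of the 97 RNAs, of which 12 of 30 tested were lower, while 25 of 44 without such a copy were lower. In the fit without the filter these were 17 of 37 and 37 of 60.

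Of the 97 RNAs, 89 were placed in an intron of a gene on the same strand, 1 on an exon (Gm24616) and 7 apart from any gene on that strand. The 7 separate RNAs lie inside no annotated host gene on their strand, which does not show that each is transcribed independently. Of them, Snord13, Snord118 and Scarna2 were on the list of RNAs known to be separately transcribed. The separate RNAs were lower in 2 of 6 tested cases with a median log2 fold change of -1.39. They summed to 36.2 and 29.87 CPM in KO, against 73.78 and 215.2 CPM in WT, a ratio of 0.229 that rests largely on Snord13 in WT library 2. The intronic RNAs were lower in 34 of 67 tested cases with a median of -2.06 and a ratio of 0.33. All 23 RNAs that passed the filter through the WT libraries alone were intronic, and 18 of them were called. The filtered shares and medians of the placements are therefore not on the same footing. Both KO libraries lay below both WT libraries for 4 of 7 separate and 70 of 89 intronic RNAs. Without the filter, 4 of 7 separate and 49 of 89 intronic RNAs were lower. The difference between the placements was not tested.

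Snord13 is the U13 RNA, which in human cells helps to acetylate small-subunit ribosomal RNA. Snord118 is the U8 RNA, needed in frog oocytes for maturation of large-subunit ribosomal RNA. The sequence of Snord118 is printed as that of a well known separate C/D RNA, with the D box in capitals, and it has no C box within the first 20 bases. It lies at chr11:69073427-69073561 on the plus strand.
Snord118: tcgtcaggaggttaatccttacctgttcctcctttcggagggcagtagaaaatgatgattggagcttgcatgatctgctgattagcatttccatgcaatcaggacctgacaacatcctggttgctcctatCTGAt

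Snord13 had 120 and 79 counts in KO, against 511 and 1520 counts in WT. Both KO libraries lay well below both WT libraries, whose values were far apart, at 8.09 ± 1.91 CPM in KO and 96.9 ± 76.8 CPM in WT (SD, n = 2 each). The log2 fold change was -3.58 (SE 0.52, edgeR adjusted p = 0.00344) and was -4.22 without WT library 1 and -2.39 without WT library 2, with the call kept in each fit that left out a library. Snord118 had 27 and 13 counts in KO, against 4 and 40 counts in WT. The WT libraries lay on either side of the KO libraries, and the log2 fold change of -0.38 (SE 0.88, edgeR adjusted p = 0.823) could not be told from 0 at this spread. Without WT library 2 it was 2.25.

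Snord104 had 148 and 149 counts in KO, against 169 and 231 counts in WT, with a log2 fold change of -0.60 (SE 0.29, edgeR adjusted p = 0.211). Snora57 had 113 and 67 counts in KO, against 96 and 217 counts in WT, with a log2 fold change of -1.01 (SE 0.45, edgeR adjusted p = 0.178). Snora17 had 39 and 12 counts in KO, against 65 and 87 counts in WT, with a log2 fold change of -1.76 (SE 0.54, edgeR adjusted p = 0.0621). None of these 3 was called, and the groups overlapped for Snora57 and not for Snord104 or Snora17.

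Scarna17 had 6 and 10 counts in KO, against 37 and 65 counts in WT, and was called at a log2 fold change of -2.83 (SE 0.60, edgeR adjusted p = 0.0172). The call was lost without KO library 1 or WT library 2. Scarna2 had 7 and 20 counts in KO, against 2 and 3 counts in WT. It was not tested, and was the only scaRNA with both KO libraries above both WT libraries.

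Other small RNAs listed as separately transcribed gave a mixed picture. The U3 genes Rnu3a and Rnu3b1 to Rnu3b4, the telomerase RNA Terc and the RNase MRP RNA Rmrp had 0 counts in all 4 libraries. Rn7sk, which holds back transcription elongation, had 75 and 60 counts in KO, against 12 and 49 counts in WT (log2 fold change 0.93, not called). The Y RNA gene Rny3 had 88 and 75 counts in KO, against 116 and 443 counts in WT, and was called lower by edgeR (adjusted p = 0.0489) at 6.66 ± 0.371 CPM in KO and 26.9 ± 24.3 CPM in WT (SD, n = 2 each). Its WT libraries were far apart, as for Snord13. Rny1 (-0.63) was not called.

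The 90 RNAs inside genes had 82 distinct hosts, all tested, of which 2 were called lower and 3 higher, at a median log2 fold change of -0.013. Over all genes tested, 4.96% were lower and 7.42% higher. Of the 34 hosts of RNAs called lower, 2 were lower (Eif4a2 at -0.55 and Trmt10c at -0.93), 1 was higher (Zbed3 at 1.84) and 31 were not called. Snora47 in Zbed3 showed opposite calls within 1 gene, with 6 and 4 counts in KO and 43 and 15 counts in WT for the snoRNA. For 64 of the 68 RNAs where both were tested, the RNA had the lower log2 fold change, with a median difference (RNA minus host) of -1.98 on the log2 scale. The 68 include the 23 RNAs that passed the filter through the WT libraries alone, all with log2 fold changes below 0. These values therefore do not stand for all 90 RNAs inside genes.

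**Figure D3:**
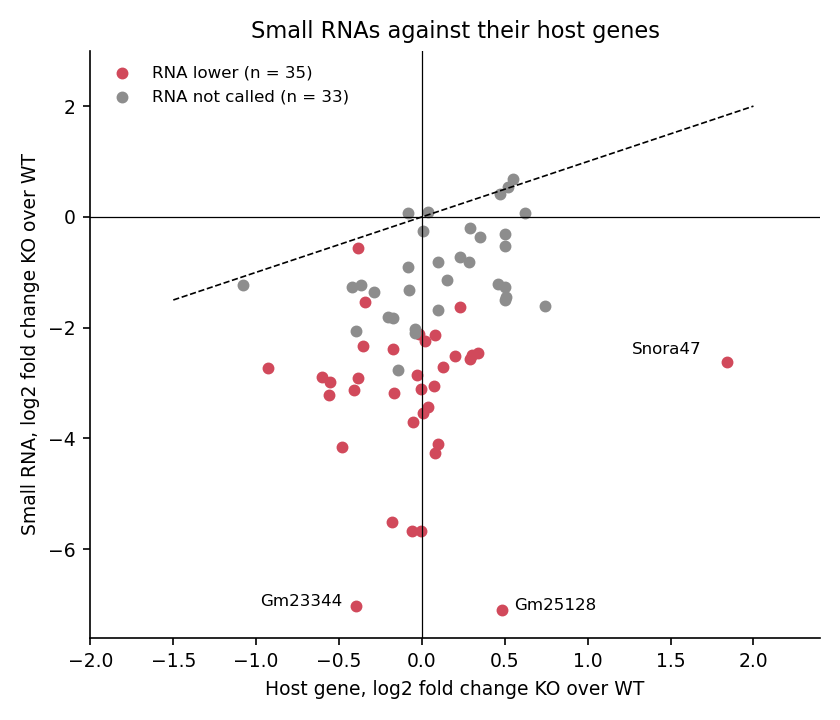
Log2 fold change KO over WT of 68 RNAs (vertical) against that of their host genes (horizontal), with RNAs called lower in red and RNAs not called in grey. The dashed line marks equal change, and 64 of the 68 points lie below it. The points include the 23 RNAs that passed the filter through the WT libraries alone. Fitted values of Gm25128 and Gm23344, near -7, depend on the prior count because both had 0 counts in KO.

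The count table does not separate mature RNA from unspliced host RNA. As a description across the same 68 RNAs, the RNA and host log2 fold changes had a Pearson r of 0.23 and a Spearman rho of 0.37. Both changes come from the same libraries, and the limit set by the filter holds here too. RNAs in ribosomal protein genes were lower in 7 of 14 tested cases, and RNAs in all other hosts in 28 of 54, against 10 of 17 and 40 of 73 without the filter. RNAs in non-coding hosts, which include Snhg6 and Snhg9, were lower in 2 of 7 tested cases and those in protein-coding hosts in 33 of 61, but without the filter these were 7 of 8 and 43 of 82.

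RNAs from 1 host did not always share a call. In Rpsa both Gm26448 (-4.26) and Snora62 (-2.14) were lower. In Ipo7, Gm25636 (-1.63) was called and Snora23 (-0.73) was not. In Nop58, Snord11 was called at -5.68, while Gm26287, with 5 and 2 counts in KO and 9 and 44 counts in WT, and Snord70 were not tested. The 2 in Rpl5, Gm26387 (-2.02) and Gm22270 (-2.09), had like values without a call. The 3 in 2410006H16Rik, Snord49a, Snord49b and Snord65, had no call. Differences between RNAs of 1 host were not tested.

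The genes for the protein partners of these RNAs are read against the shares over all genes tested, of which 4.96% were lower and 7.42% higher. Of the 4 H/ACA core proteins, Nop10 was lower (log2 fold change -0.72, edgeR adjusted p = 0.0184), with 3259 and 3207 counts in KO and 5840 and 3895 counts in WT. Nhp2 (-0.46), Gar1 (-0.43) and Dkc1, the pseudouridine synthase (-0.30), were not called. Of the 4 C/D core genes, 0 were called by edgeR and 0 by DESeq2, and only Nop56 had an unadjusted edgeR p under 0.05. Their log2 fold changes were 0.11 for Fbl, the methyltransferase, -0.46 for Nop56, -0.35 for Snu13 and -0.06 for Nop58.

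Of 12 assembly factors, 4 were lower and 1 higher, against 4.96% and 7.42% of all genes tested. Znhit6 (-0.82), Znhit3 (-0.77), Ruvbl2 (-0.81) and Rpap3 (-0.83), which take part in C/D particle assembly, were lower, and Pih1d1, a member of the same cochaperone complex as Rpap3, was higher at 0.95. Of 19 genes of SNAPc and Integrator, which act at promoters and 3' ends of separately transcribed small RNAs, Ints6 (1.11) and Ints3 (0.66) were higher and Ints11 (-0.67), the catalytic subunit, was lower. EdgeR and DESeq2 called 0 genes among 4 of Cajal bodies and telomerase, 10 of snoRNA 3' end trimming and oligoadenylation, 10 of the exosome and 4 of intron debranching, with 0, 2, 2 and 1 of them at an unadjusted edgeR p under 0.05, all lower. The medians of these 4 lists were -0.36, -0.029, -0.21 and -0.32, against -0.0061 over all genes tested.

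Runs of A, at which oligo(dT) can prime within an RNA, were set beside the size of the difference. The following 4 RNAs have runs of at least 6, in capitals. Snord49b lies at chr11:62603079-62603150 (plus strand), Gm26225 at chr14:64753918-64754052 (plus strand), Snord72 at chr15:5118404-5118484 (plus strand) and Gm23722 at chr1:39573746-39573875 (minus strand).
Snord49b: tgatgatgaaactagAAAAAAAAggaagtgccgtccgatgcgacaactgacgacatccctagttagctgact
Gm26225: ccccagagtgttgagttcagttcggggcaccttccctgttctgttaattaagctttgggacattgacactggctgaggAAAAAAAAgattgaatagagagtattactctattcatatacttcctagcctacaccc
Snord72: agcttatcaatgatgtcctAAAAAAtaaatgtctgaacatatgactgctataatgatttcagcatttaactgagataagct
Gm23722: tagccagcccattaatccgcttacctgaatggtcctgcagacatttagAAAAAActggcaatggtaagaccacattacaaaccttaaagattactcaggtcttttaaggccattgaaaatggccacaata

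Gm26225, with 8 A in a row, had 96 and 159 counts in KO, against 118 and 156 counts in WT. Its groups overlapped and its log2 fold change was -0.26 (SE 0.36, edgeR adjusted p = 0.684). Snord49b, also with 8, had 41 and 62 counts in KO, against 85 and 136 counts in WT, with a log2 fold change of -1.27 (SE 0.42, edgeR adjusted p = 0.0786). Snord72 and Gm23722, each with 6, had log2 fold changes of -0.91 and 0.40 and were not called. The remaining RNA with a run of 6, Gm25636, was called lower at -1.63 and lost that call when either KO library or the first WT library was left out.

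A run of at least 5 A was present in 13 of the 97 RNAs (13.4%), against 9.24% of all annotated genes of both biotypes. In the fit without the filter, which covers all 97, 4 of these 13 were lower, against 50 of the 84 with shorter runs. For 8 of the 13 and 67 of the 84 the KO libraries were both below the WT libraries. The summed CPM ratio was 0.563 for RNAs with such a run and 0.283 for the rest. By the longest run, the unfiltered fit called 10 of 13 RNAs with 2 A lower, 23 of 41 with 3, 17 of 30 with 4, 2 of 8 with 5, 1 of 3 with 6 and 1 of 2 with 8. The filtered fit called 1 of 9 RNAs with such a run and 36 of 65 others, but all 23 RNAs that passed the filter through the WT libraries alone were among the 65, so these shares do not stand for the 97. The difference between the groups and the part of internal priming in it were not tested.

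**Figure D4:**
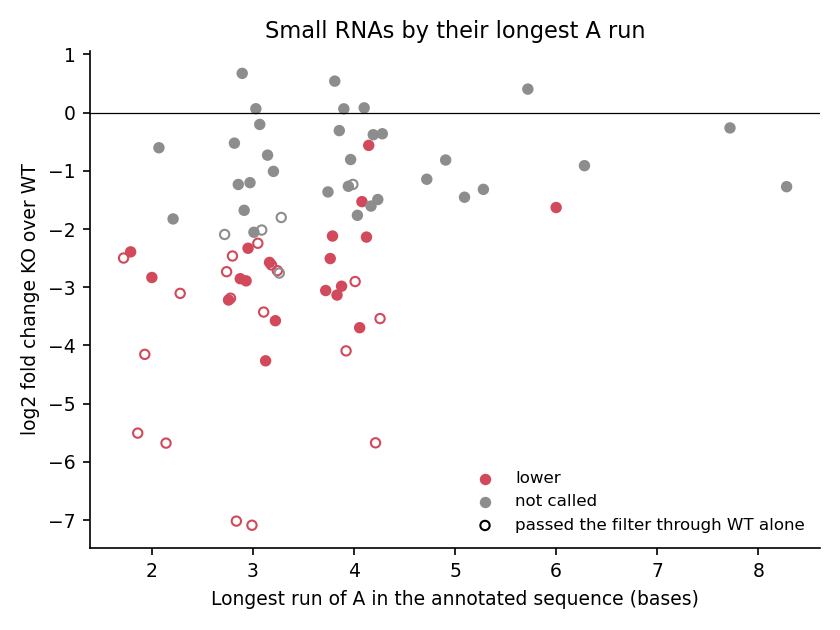
Log2 fold change KO over WT of the 74 tested RNAs (vertical) by the longest run of A in the annotated sequence (horizontal, bases), with RNAs called lower in red. Open circles mark the 23 RNAs that passed the filter through the WT libraries alone, all of them with runs below 5.

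The WT libraries differed from each other by box type. RNAs with the ACA form were higher in WT library 1 than in WT library 2 in 44 of 63 cases (median log2 ratio 0.251), and RNAs with C and D boxes were higher in WT library 2 in 16 of 20 cases (median -0.755). All 7 separate RNAs were higher in WT library 2, at a median of -1.06. Between KO library 1 and KO library 2 the medians were 0.384 for the ACA form and -0.117 for the C/D form. Both KO libraries lay below both WT libraries for 19 of the 20 C/D RNAs, with a sum of 25.34 and 30.04 CPM in KO, against 57.17 and 101.5 CPM in WT. The ACA RNAs summed to 277.6 and 250.2 CPM in KO, against 922.7 and 718.9 CPM in WT.

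**Figure D5:**
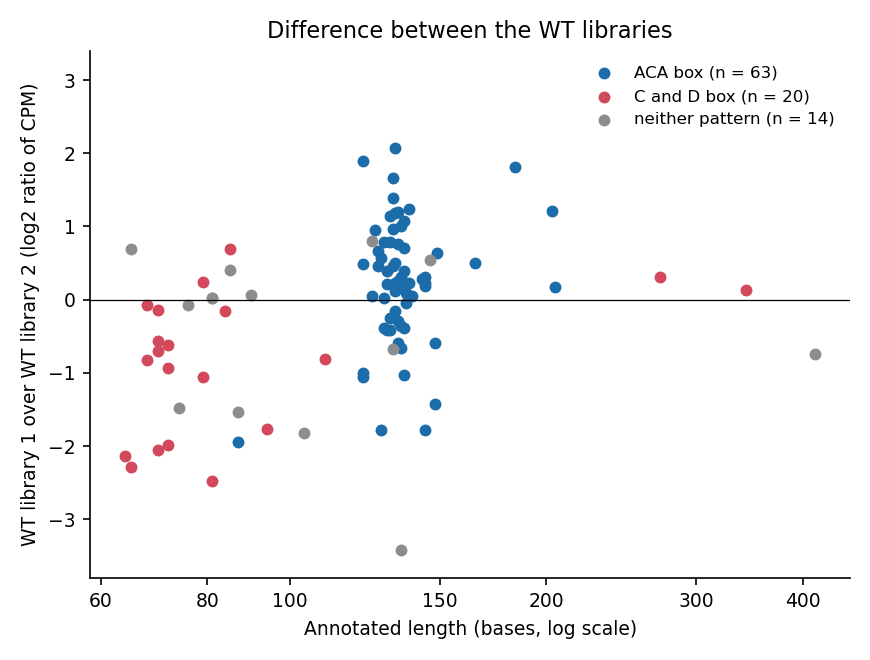
Log2 ratio of WT library 1 over WT library 2 in CPM (vertical) against annotated length (horizontal, bases, log scale) for the 97 RNAs, coloured by box type. ACA RNAs lie mostly above 0 (44 of 63) and C/D RNAs mostly below (16 of 20), and most C/D RNAs are the shorter ones.

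Length and box type go together, with a median of 134 bases for the ACA form and 72 bases for the C/D form, so the parts of length and of box type in this difference between the WT libraries cannot be told apart. Over the 97 RNAs the log2 ratio and length had a Pearson r of 0.25 and a Spearman rho of 0.34.

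Calls in other small non-coding RNA classes are read against the 4.96% of all genes tested that were lower. The snRNA genes summed to 978 and 973 counts in KO, against 1055 and 1150 counts in WT, and of 21 tested 1 was lower. The miRNA genes summed to 3335 and 2522 counts in KO, against 2612 and 2149 counts in WT, with 1 of 8 tested lower. They include the genes of the cluster missing in KO, of which Mir295 had 0 counts in both KO libraries and 80 and 22 counts in WT. The misc_RNA genes, which include Rn7sk and the Y RNAs, summed to 458 and 455 counts in KO, against 472 and 1001 counts in WT, with 1 of 8 lower. Replication-dependent histone genes, whose mRNAs also lack a poly(A) tail, were called in 0 of 43 tested cases by edgeR and in 0 of 44 by DESeq2, with 4 lower and 0 higher at an unadjusted edgeR p under 0.05. Their median log2 fold change was -0.60. Both KO libraries lay below both WT libraries for 12 of 52 of them and above for 1, against 28.2% and 28.5% of all genes with a summed count of at least 20.

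Markers of other cells and signs of RNA quality were read beside these results. Primitive endoderm markers were lower in KO, 4 of 5 (Gata6, Sox17, Dab2 and Col4a1), and their summed level was 11.9 and 10.5 CPM in KO, against 117 and 111 CPM in WT. Fibroblast markers summed to 10.2 and 20.7 CPM in KO, against 29 and 51.2 CPM in WT, with Thy1 and Col1a1 lower and Col3a1, Dcn and Postn at 0. Of the 8 embryonic stem cell markers, Klf4 (-1.59) and Utf1 (-0.91) were lower. Sox2 (0.44), Nanog (0.31), Esrrb (0.28), Pou5f1 (-0.04), Zfp42 (-0.17) and Tdgf1 (-0.21) were not called. Neither of 2 tested trophoblast markers was called. Mitochondrial genes took 5.08% and 4.93% of counts in KO, against 6.02% and 5.58% in WT. The part of these markers and of the mitochondrial share in the lower snoRNA and scaRNA counts was not tested.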

How the data were processed

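Gene expression was measured in 2 KO and 2 WT libraries. Trizol-extracted RNA was made into QuantSeq 3' FWD libraries, per the labels' protocols. The authors deposited raw, whole-number counts for each Ensembl identifier in a single table. The submitters' processing notes name Trim Galore and the build GRCm38. Which aligner and counter were used, and how strand and multiply mapped reads were handled, were not given in the sources used here. Counts of near-identical copies, overlapping genes and antisense genes could therefore be shared or lost.

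Biotypes, names and positions came from GENCODE vM21, which held 55240 of the 55421 identifiers. An RNA was intronic or exonic by the genes on its own strand, and separate where none contained it. Copies were searched among all annotated snoRNA and scaRNA genes, at 90% identity.

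The comparison of KO with WT used edgeR 4.0.16 in R 4.3.3 (TMM, filterByExpr with a minimum of 0.836 CPM in 2 libraries, two-sided quasi-likelihood F test), with Benjamini-Hochberg adjustment over 14427 genes at 0.05. The biological coefficient of variation came to 0.198, and each standard error was the log2 fold change over the root of F. CPM is on the TMM scale, given as mean ± SD. A floor of 3 counts over the KO group is 0.123 CPM. With 2 libraries against 2, an exact permutation test cannot go below a two-sided p of 0.333, so none was used. Libraries of a group differed beyond sampling noise (chi-square per degree of freedom 11.35 within KO and 18.85 within WT). The scripts (Python 3.11.15) were tested on simulated counts.

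Named genes followed a rule: all separate RNAs, all Scarna RNAs, the Snora and Snord RNAs with the most counts, the called RNAs with the largest change, those nearest the count threshold, hosts of named RNAs, RNAs that share a host, and from each list the genes with the smallest p. Gm24616, Gm23722, Gm26225, Gm23639 and the other RNAs named outside it were picked with their values in view. The RNAs, the lists and the rule were chosen with earlier results of these data known. Alternatives were DESeq2 1.42.0 size factors and its test, total counts, TMM from protein-coding genes, no filter, a mean of at least 1 CPM, a summed count of 50 or more, a replicate block, and each library left out. Leaving out RNAs with a copy or an exon overlap was added after the data were seen.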

Additional observations from a re-analysis of the deposited data

How the results depend on the processing

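The count of 37 RNAs lower in KO was 37 with DESeq2 size factors, 36 with total counts, 37 with TMM from protein-coding genes, 54 without the filter, 32 at a mean of at least 1 CPM, 32 at a summed count of at least 50 and 31 by the DESeq2 test, and 0 were higher in each of these. Leaving out each library gave between 24 and 34 lower, with 24 without KO library 2. Those fits tested between 83 and 94 RNAs, not 74, so their counts are not on the same footing as the 37. The 54 without the filter are not on that footing either, as that fit gave much smaller adjusted p-values for RNAs such as Gm24289. Without RNAs that have a copy or overlap an exon the count of lower RNAs was 24 of 43 tested. With the replicate block it was 24. The labels give no shared source for same-numbered libraries. The deviations of these libraries had a correlation of -0.0703, which with 2 pairs cannot decide whether the numbers pair the samples. In all 4 fits with 1 library left out and in all 11 alternatives, 18 of the 37 kept their call: Gm22748, Gm22767, Gm22980, Gm23442, Gm23639, Gm23751, Gm24289, Gm24336, Gm24494, Gm24507, Gm24616, Gm26448, Scarna9, Snora20, Snord11, Snord13, Snord35a and Snord42a. Of these, Gm24494, Scarna9, Snord11, Snord35a and Snord42a passed the filter of the main fit through the WT libraries alone. Their place in the test thus rested on the group where they were higher. No log2 fold change of an RNA called lower reversed. With each library left out, the summed CPM ratio was 0.479 to 0.543 for Snora, 0.15 to 0.381 for Snord and 0.161 to 0.302 for Scarna. RNAs under about 20 counts in KO rest on few reads, and no molecular identifiers are mentioned in the labels.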
